A study of Mus musculus with 45 samples.

Results

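The tumours with the highest and the lowest levels of interferon-stimulated genes were set against each other. All 45 tumours of the series were ranked by the mean log2 level of Ifit1, Ifit3, Irf7, Rsad2 and Oas2, and the 12 highest (interferon-high) were compared with the 12 lowest (interferon-low), leaving 21 in between. These names refer to the 5 transcripts alone, since interferon protein was not measured. Each tumour arose from Trp53-null mammary fragments of BALB/c donors, which were placed in an inguinal mammary fat pad of a 10-week-old female host. Hosts were wild-type BALB/c, and their own epithelium had been taken out at 3 weeks of age. The hosts, and not the fragments, had received sham treatment (18 tumours) or 10 cGy (9 tumours), 30 cGy (10) or 80 cGy (8) of Si ions 3 days before transplantation. Transplants were watched for 600 days and a tumour was removed on reaching 1 cm3. All groups therefore share the loss of Trp53, and host cells that grow into a tumour are wild type. The labels do not say that the tumours came from separate animals, so p-values measure only the spread between these samples.

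Interferons are secreted proteins that bind receptors on most cells. The receptors activate JAK kinases and, through them, STAT transcription factors, and STAT2 with IRF9 serves type I interferons and interferon lambda. These factors switch on a large set of interferon-stimulated genes that block viruses, sense foreign nucleic acids and present antigens. In tumours such genes can be active in the cancer cells and in immune and stromal cells of the host.

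The 5 genes that define the ranking are given as a description, with no test. Ifit3, whose product belongs to a family that binds viral RNA, lay at 9.48 to 10.87 (median 9.97) in interferon-high tumours and at 6.15 to 8.43 (median 7.99) in interferon-low ones. Ifit1, of the same family, lay at 8.79 to 9.79 (median 9.17) against 5.22 to 7.83 (median 7.27). For both genes the sets did not touch. Irf7, the transcription factor that amplifies type I interferon production, lay at 9.52 to 11.23 (median 10.77) against 7.69 to 9.82 (median 9.03). Rsad2, which encodes the antiviral enzyme viperin, lay at 8.20 to 9.98 (median 9.42) against 6.17 to 8.55 (median 7.66). Oas2, an enzyme that makes the messenger which activates RNase L, lay at 8.53 to 10.55 (median 9.17) against 6.13 to 9.17 (median 7.81). For these 3 genes the sets overlapped.

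The 5-gene mean fell smoothly across most of the 45 tumours. It ranged from 9.23 to 10.26 in the high set (median 9.66), from 8.36 to 9.22 in the middle and from 6.33 to 8.33 in the low set (median 8.04). At the upper boundary 10 cGy replicate 9 stood just inside at 9.23 and 80 cGy replicate 7 just outside at 9.22. At the lower boundary 30 cGy replicate 6 stood just outside at 8.36 and 80 cGy replicate 5 just inside at 8.33. The boundaries therefore cut through a continuous series of values. The bottom was different: 80 cGy replicate 8 stood at 7.85, 30 cGy replicate 10 at 6.90 and sham replicate 18 at 6.33. These last 2 tumours stood apart from the other 10 of the low set, and the calls and differences without them are given after those of all 24 tumours.

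**Figure D1:**
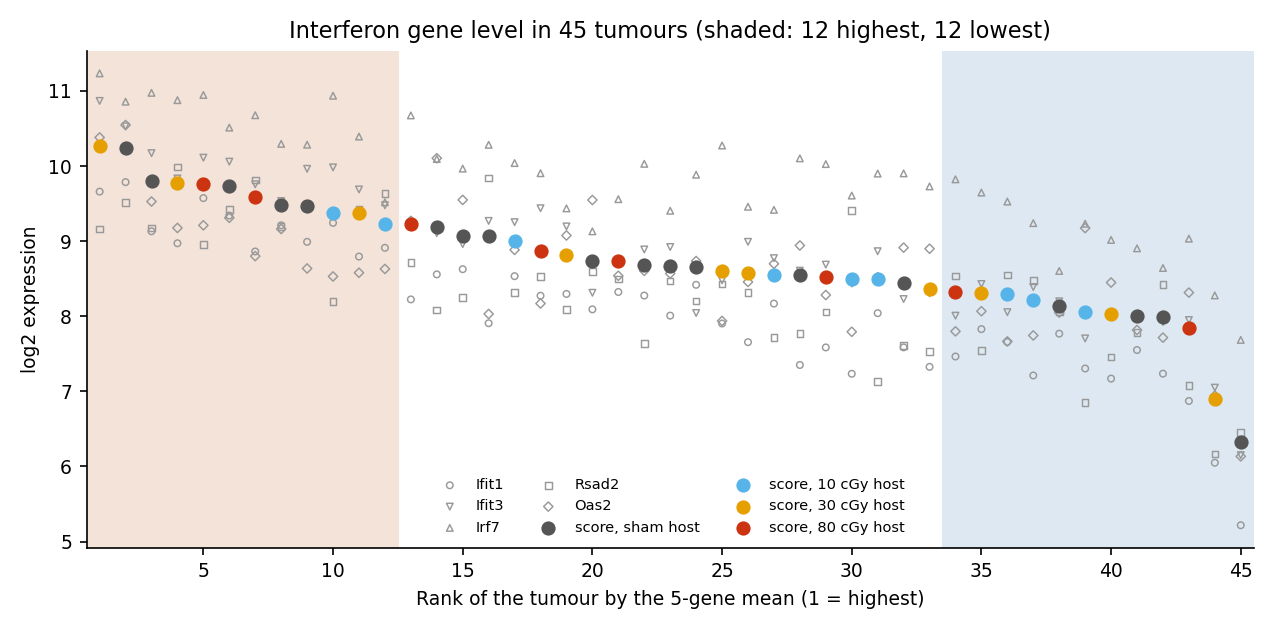
The 5-gene mean log2 expression (large points, coloured by host group) and the 5 single genes (small open symbols) for each of the 45 tumours, in order of rank. The 12 highest tumours run from 10.26 down to 9.23 and the 12 lowest from 8.33 to 6.33, with 2 tumours standing apart at the bottom.

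The promoters of genes that carry the pattern are shown because interferon-activated factors bind short repeats of GAAA. The sequences are the 250 bases before the start of each gene, read from RefSeq on build GRCm38.p6 and written 5′ to 3′ along the gene's own strand. Capitals mark matches to a motif of GAAA, any 2 bases and a second GAAA, searched on both strands, so that TTTC, any 2 bases and TTTC is the same motif on the opposite strand. Ifit1, Ifit3 and Rsad2 are members of the ranking, and Isg15, Oas3 and Gm12250 were among the other genes higher in interferon-high tumours.
Ifit1 (chr19:34640639-34640888, plus strand): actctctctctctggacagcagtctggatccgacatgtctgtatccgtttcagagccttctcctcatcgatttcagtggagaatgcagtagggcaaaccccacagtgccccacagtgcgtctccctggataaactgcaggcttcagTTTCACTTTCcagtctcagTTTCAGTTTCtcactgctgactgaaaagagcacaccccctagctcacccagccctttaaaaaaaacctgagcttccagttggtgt
Ifit3 (chr19:34583279-34583528, plus strand): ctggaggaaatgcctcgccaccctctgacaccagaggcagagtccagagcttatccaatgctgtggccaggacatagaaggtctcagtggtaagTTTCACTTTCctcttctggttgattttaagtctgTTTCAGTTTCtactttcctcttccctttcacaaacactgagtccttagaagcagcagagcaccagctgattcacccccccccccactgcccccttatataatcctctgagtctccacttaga
Rsad2 (chr12:26456453-26456702, minus strand): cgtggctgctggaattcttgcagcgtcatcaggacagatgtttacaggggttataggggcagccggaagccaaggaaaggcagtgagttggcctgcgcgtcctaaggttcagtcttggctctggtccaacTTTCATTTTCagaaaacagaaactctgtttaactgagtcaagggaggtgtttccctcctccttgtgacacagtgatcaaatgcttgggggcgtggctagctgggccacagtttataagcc
Isg15 (chr4:156200819-156201068, minus strand): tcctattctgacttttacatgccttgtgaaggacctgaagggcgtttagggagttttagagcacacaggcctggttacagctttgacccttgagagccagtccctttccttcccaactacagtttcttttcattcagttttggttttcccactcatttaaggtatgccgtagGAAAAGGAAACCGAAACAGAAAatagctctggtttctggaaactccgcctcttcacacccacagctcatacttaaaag
Oas3 (chr5:120777660-120777909, minus strand): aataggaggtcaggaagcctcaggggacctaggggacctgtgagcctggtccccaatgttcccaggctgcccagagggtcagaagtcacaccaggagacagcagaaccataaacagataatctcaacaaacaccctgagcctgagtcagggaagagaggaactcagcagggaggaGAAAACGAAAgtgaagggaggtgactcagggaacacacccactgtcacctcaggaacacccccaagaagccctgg
Gm12250 (chr11:58183593-58183842, plus strand): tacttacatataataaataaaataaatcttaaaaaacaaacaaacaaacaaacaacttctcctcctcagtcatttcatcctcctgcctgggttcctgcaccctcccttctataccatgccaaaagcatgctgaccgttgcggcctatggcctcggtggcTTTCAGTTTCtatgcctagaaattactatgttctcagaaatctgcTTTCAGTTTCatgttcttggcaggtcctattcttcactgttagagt
Ifit1 and Ifit3 each held 2 matches with the same letters in the same order, starting at -104 and -85 in Ifit1 and at -156 and -122 in Ifit3. In Isg15, 3 matches overlapped one another. The window of Irf7 held 0 matches, and Oas2 had no entry in the table. In windows of 300 bases (250 before and 50 after the start), 26 of the 53 called genes with a promoter entry held the motif, or 49.1%, against 350 of 9652 tested genes with an entry, or 3.63%, and 1079 of 27025 in the whole table, or 3.99%. A second motif, TTCNNNGAA, which reads the same on both strands, was in 9 of these 53 windows (17%), against 8.26% of tested genes and 9.55% of the whole table. The motifs were searched separately and may share letters. A match is a description of the sequence and not a shown binding site.

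At an adjusted p under 0.05, limma called 74 genes higher in interferon-high tumours, which is 0.611% of the 12118 tested, and 0 lower (0% of them). Before adjustment, 707 genes had p under 0.05, of which 447 were higher and 260 lower in the high set. Of the 74 called genes, 57 belonged to lists of interferon genes and the other 17 were in none of the 40 lists examined. Those lists were chosen with earlier results of these data known, and the ranking itself used interferon-stimulated genes. Counts by list, here and below, are therefore a description and no independent support. The differences of the 74 genes ran from 0.47 to 2.15 log2, with a median of 1.19. Of these, 50 exceeded 1 log2, against a median of -0.01 over all genes tested. The sets were chosen on measured values of 5 co-varying genes, so each such p tests a gene's association with that ranking and not the effect of a treatment. All errors given with a difference are standard errors.

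Ifit3b had the smallest p. It lay at 6.43 to 8.31 (median 7.19) in the high set and at 4.05 to 5.70 (median 5.30) in the low set, with no overlap. The difference was 2.15 ± 0.21 log2, or 4.42-fold (limma adjusted p = 1.117e-06). Most low-set values were under 5.67, the level of the filter on low values, so the fold is uncertain. Ifit3b is a near copy of Ifit3, a ranking gene, and probes may detect both, so it adds little beyond the ranking itself. Ifit2, another RNA-binding member of the family, lay at 8.30 to 9.67 (median 8.75) against 6.42 to 7.84 (median 7.27). These sets did not overlap either, and the difference was 1.61 ± 0.18 (limma adjusted p = 8.434e-06).

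Isg15, a ubiquitin-like protein that is attached to other proteins in infected cells, lay at 5.79 to 7.14 (median 6.54) against 4.31 to 6.12 (median 5.27). All 12 high tumours stood above the low median although the ranges overlapped, and the difference was 1.29 ± 0.17 (limma adjusted p = 9.613e-05). Most low-set values of Isg15 were also under the filter level of 5.67. Ifi44l lay at 8.55 to 9.98 (median 9.30) against 6.43 to 8.29 (median 7.77), without overlap. Its difference was 1.58 ± 0.20 (limma adjusted p = 7.65e-05). Bst2, which encodes tetherin, a membrane protein that holds budding viruses at the cell surface, lay at 7.88 to 9.86 (median 8.96) against 6.71 to 8.37 (median 7.62). The sets overlapped and the difference was 1.44 ± 0.21 (limma adjusted p = 0.000219). Mx1, a gene of the MX family of GTPases, lay at 6.63 to 8.03 (median 7.30) against 5.01 to 6.87 (median 6.14). Its ranges overlapped slightly and the difference was 1.33 ± 0.19 (limma adjusted p = 0.000219).

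Of the called genes, 10 had no overlap between the sets, and these were also the only 10 such genes among the 12118 tested, where 0.611% were called higher. They were Ifit3b, Ifit2, Ifi44l, Ifi214, Cmpk2, Tor3a, Trim30a, Slfn8, Phf11d and Gbp5. Cmpk2 encodes a mitochondrial nucleotide kinase and lies next to Rsad2 in the genome. It lay at 7.62 to 8.79 against 5.43 to 7.51. Gbp5, a guanylate-binding protein that promotes inflammasome assembly, lay at 6.20 to 7.41 against 4.74 to 6.14.

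**Figure D2:**
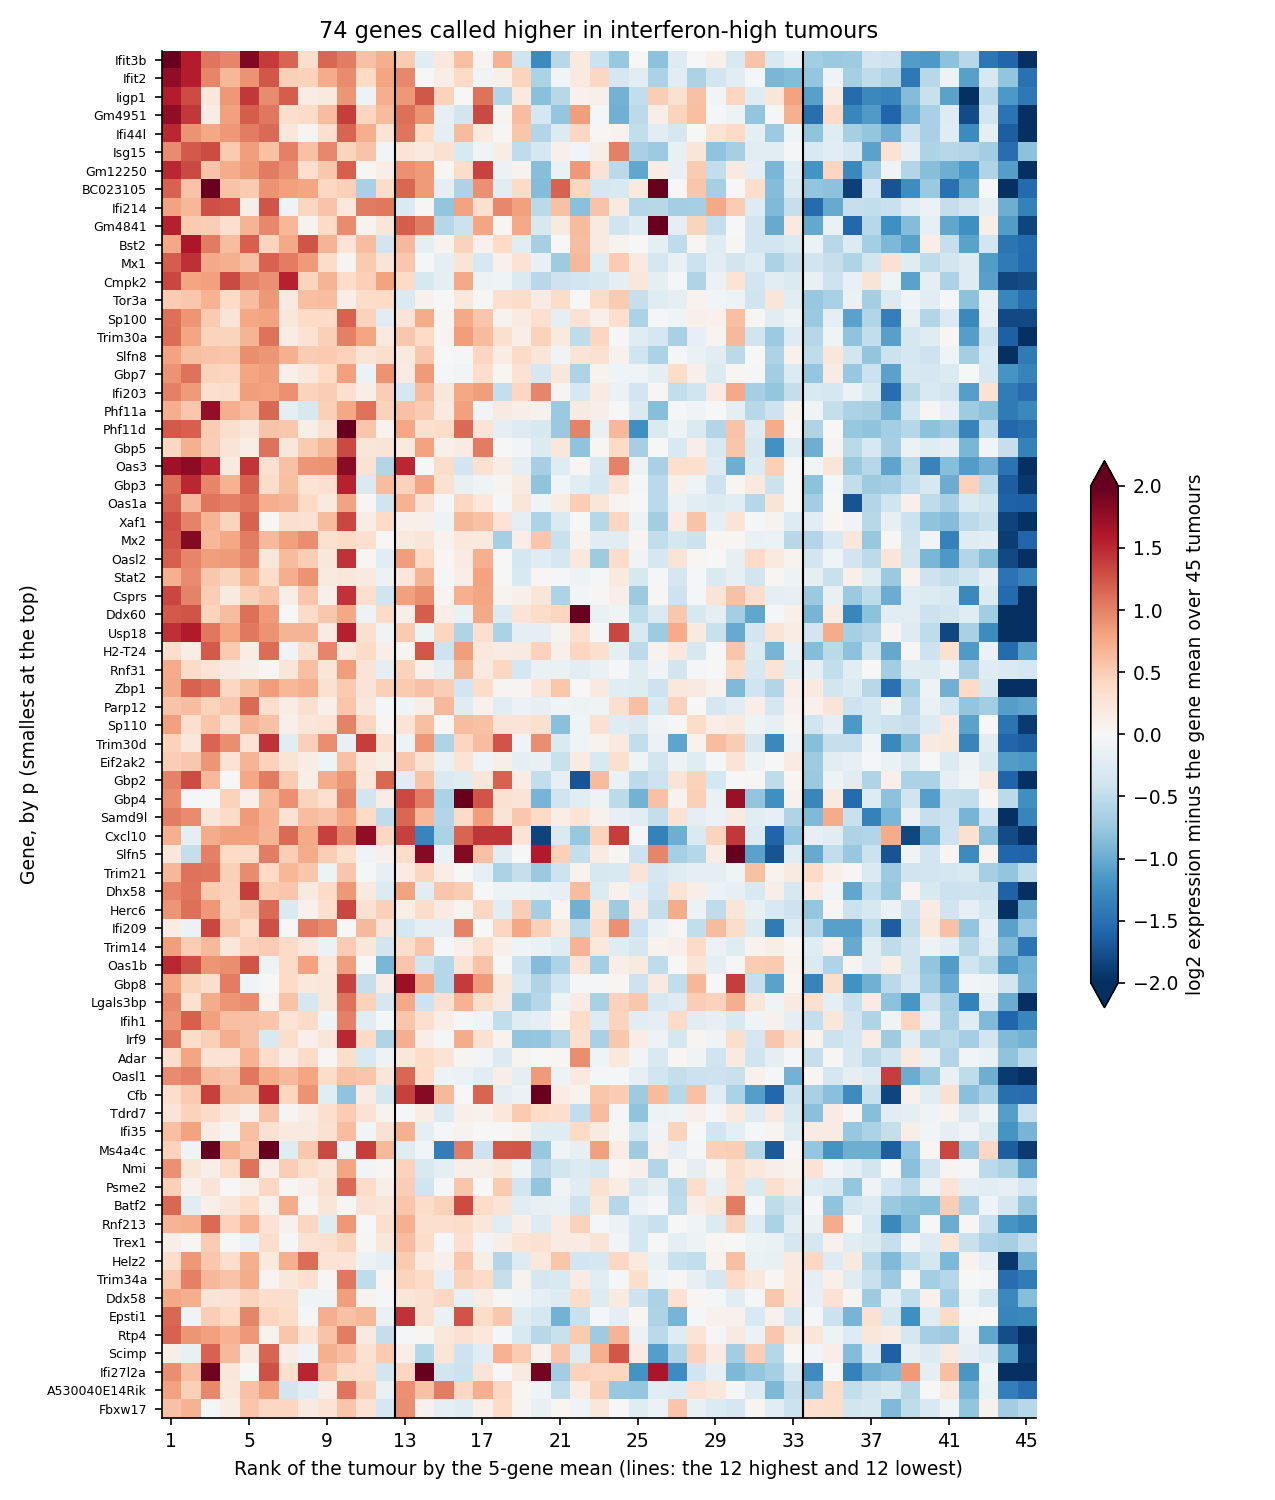
Log2 expression of the 74 called genes, each minus its mean over 45 tumours (red above, blue below), with tumours in order of the 5-gene rank and lines at the set boundaries. The high set is mostly red and the low set mostly blue, and the 2 lowest-ranked tumours are the bluest columns.

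The level of the called genes varied from tumour to tumour within a set. Their mean log2 level ran from 8.08 to 8.87 in the high set, from 7.61 to 8.48 in the middle and from 6.45 to 7.82 in the low set. The tumours ranked 13 and 12 stood in the opposite order on this measure, since 80 cGy replicate 7 stood 0.53 above and 10 cGy replicate 9 stood 0.12 above the 45-tumour mean. Sham replicate 18 was the lowest of all 45 tumours for 36 of the 74 genes and 30 cGy replicate 10 for 25 of them. In the high set, 10 cGy replicate 2 was the highest of all tumours for 17 genes and 30 cGy replicate 5 for 12. Without the 2 lowest-ranked tumours limma called 54 genes, all higher, of which 52 were among the 74. All 74 still had a positive difference, and their median went from 1.19 to 0.99. Ifit3b stood at 1.98, Ifit2 at 1.52, Isg15 at 1.17, Ifi44l at 1.37, Bst2 at 1.28, Mx1 at 1.15, Oas3 at 1.60 and Iigp1 at 1.79, and each of these was still called. Among genes named in the following paragraphs, Oas1b, Ifi27l2a, Adar, Irf9, Batf2, Ifih1, Ddx58, Trex1, Psme2 and Cfb were no longer called. By list, the calls went from 11 to 10 for antiviral effectors, from 8 to 6 for the ISG15 system, from 20 to 12 for other interferon-stimulated genes, from 7 to 8 for the GBP and IRG families, from 5 to 3 for sensors, from 3 to 1 for the STAT, IRF and BATF2 factors and from 1 to 0 for negative regulators. MHC class I went from 2 to 1, and the chemokines kept 1.

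Among the antiviral effectors of the IFIT, OAS and MX families, 11 of 17 tested genes were called higher and 0 lower, with a median difference of 1.24 log2. Oas3 lay at 7.05 to 9.44 (median 8.54) against 4.85 to 7.89 (median 6.74), overlapping, and differed by 1.84 ± 0.30 (limma adjusted p = 0.0009872). Oas1a (1.32), Oasl2 (1.40), Oasl1 (1.25), Oas1b (1.11) and Eif2ak2, the kinase PKR that halts translation (0.76), also passed, as did Mx2. The OAS, MX, SLFN, TRIM30, PHF11, GBP and IFI200 families hold close relatives on which probes may cross-hybridise, so single members of them are uncertain.

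Of the ISG15 system and its ubiquitin-like modifiers, 8 of 12 tested genes were called, with a median of 0.93. Usp18, the protease that removes ISG15 and also restrains the type I receptor, lay at 9.96 to 11.61 (median 10.87) against 7.68 to 10.76 (median 9.41). The sets overlapped and the difference was 1.68 ± 0.30 (limma adjusted p = 0.002373). Herc6, the ligase that attaches ISG15 in mice, differed by 1.08. Of 29 other interferon-stimulated genes 20 were called, with a median of 1.07, among them Xaf1 (1.30), Ifi27l2a (1.37), Samd9l (1.25) and Adar, which edits double-stranded RNA (0.59).

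Among GTPases of the GBP and IRG families, which attack membranes of intracellular parasites, 7 of 9 were called and the median was 1.04. Only these 9 of the 18 listed genes had a probe set with 1 symbol. Iigp1 lay at 7.50 to 9.18 (median 8.48) against 5.58 to 7.75 (median 6.49), overlapping, with a difference of 1.84 ± 0.22 (limma adjusted p = 3.446e-05). Gbp3 (1.42), Gbp2 (1.27), Gbp7 (1.12), Gbp4 (1.04), Gbp5 (1.01) and Gbp8 (0.97) passed as well. Outside all lists, Gm12250 differed by 1.61 ± 0.22, Gm4951 by 1.92 ± 0.25, BC023105 by 1.82 ± 0.25, Gm4841 by 1.46 ± 0.21 and Ifi214 by 1.35 ± 0.19. Most low-set values of BC023105, Gm4841 and Ifi214 were under the filter level of 5.67. The lists do not hold every member of their families, so a place outside them does not make a gene unrelated to interferon. The remaining called genes outside the lists included Ddx60, an RNA helicase gene (1.43), Trim14 (0.81) and Cfb, complement factor B (1.20).

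Upstream of these effectors, of 9 interferon receptor and kinase genes 0 were called (median 0.22), and Ifnar1, a chain of the type I receptor, stood at 0.01 ± 0.13. Of a list of 9 STAT and IRF factors, which also holds the bZIP factor Batf2, 3 were called, Stat2 (0.97), Irf9 (0.87) and Batf2 (0.71), where Stat2 and Irf9 are parts of the complex that type I interferons activate. Irf1, a factor strongly induced by interferon-gamma, stood at 0.41 ± 0.16 and did not pass (limma adjusted p = 0.765). Of 18 nucleic acid sensors and adaptors 5 were called (median 0.63): Ifi203, Zbp1, which binds Z-form nucleic acids, and the RNA helicase genes Dhx58, Ifih1 (MDA5) and Ddx58 (RIG-I). The sensor gene Cgas stood at 0.32 ± 0.15 and its adaptor Sting1 at 0.56 ± 0.23, and neither passed. Of 8 negative regulators only Trex1, a nuclease that clears cytosolic DNA, was called (0.47), and the list median was 0.14.

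Transcripts of the interferons themselves were mostly at the low end of the arrays. Of 14 interferon genes measured, 1 passed the filter on low values, Ifnl2, at 5.53 to 6.17 (median 6.05) in the high set and overlapping values in the low set (median 6.10). It differed by -0.10 ± 0.12. Ifnb1 lay between 3.03 and 4.04 over all 45 tumours, below the filter level of 5.67. Ifng lay between 4.29 and 5.71 and exceeded that level in 2 tumours. No statement on a difference in the interferon transcripts below the filter can be made from this signal.

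Among genes of antigen presentation, of 17 genes of MHC class I and its peptide loading 2 were called, H2-T24 (1.09) and the proteasome activator Psme2 (0.54). The median was 0.47 and all 17 differences were above 0, against 5795 of 12118 genes tested. Tap1, the peptide transporter, stood at 0.66 ± 0.26 and B2m, the shared light chain, at 0.14 ± 0.08, and neither passed. Of 8 MHC class II genes 0 were called (median 0.22). Of 9 interferon-induced chemokines only Cxcl10 was called, at 8.77 to 10.73 (median 9.74) against 6.06 to 9.70 (median 8.36), overlapping, with a difference of 1.61 ± 0.31. Cxcl9, which attracts T cells through the same receptor, stood at 1.07 ± 0.29 (limma adjusted p = 0.122). Of 9 checkpoint and tryptophan enzyme genes 0 passed, with Cd274 (PD-L1) at 0.76 ± 0.22 and Ido1 at 0.30 ± 0.44.

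**Figure D3:**
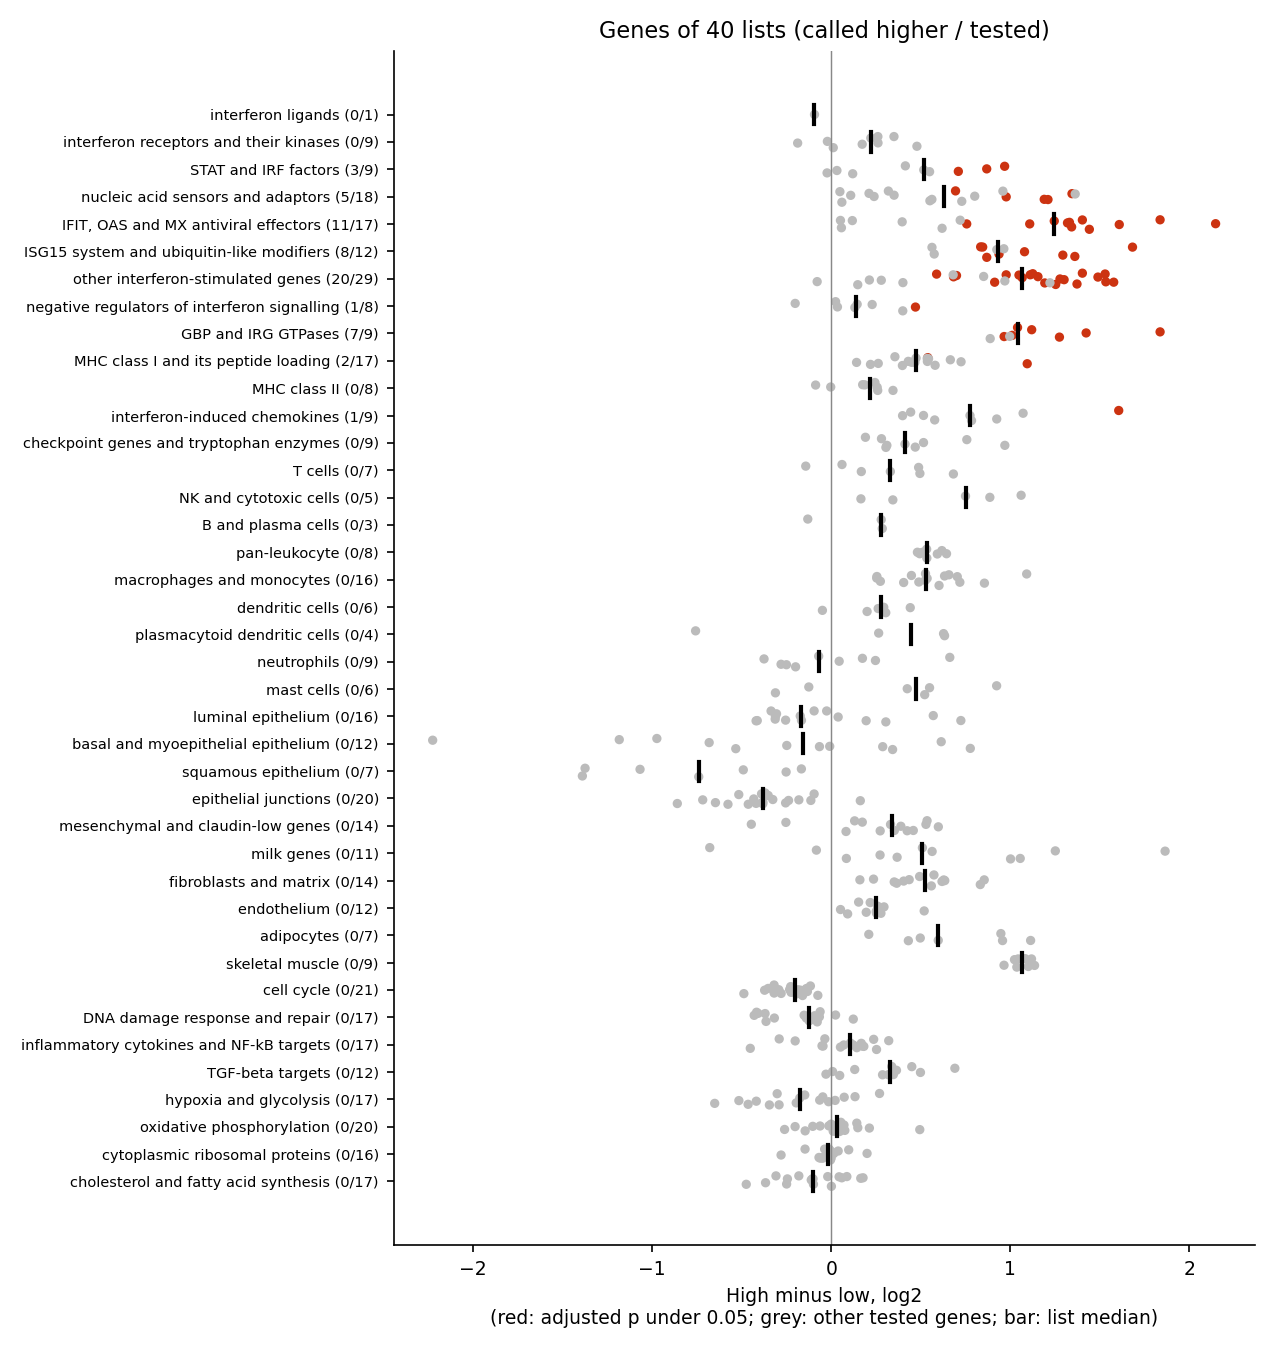
High minus low log2 difference of each tested gene in 40 lists, with called genes in red, other tested genes in grey and the list median as a bar. Red points occur only in the interferon lists, including chemokines and MHC class I, and medians reach 1.24 for the antiviral effectors.

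Markers of other cells were given by list, over the members that passed the filter on low values. A bulk tumour mixes these cells, and fewer cells of a type and less RNA per cell cannot be told apart. All 8 pan-leukocyte genes had a positive difference (median 0.53) and 0 passed. Their mean log2 level ran from 7.80 to 9.99 in high and from 7.18 to 9.89 in low tumours. Ptprc, the common leukocyte antigen CD45, lay at 8.42 to 10.12 (median 9.31) against 7.71 to 9.82 (median 8.71). These sets overlapped over most of their range, and its difference was 0.53 ± 0.23 (limma adjusted p = 0.822). Macrophage and monocyte genes had positive differences in 16 of 16 cases, with a median of 0.53 and 0 calls. Their mean level ran from 8.01 to 10.65 in high and from 7.34 to 10.62 in low tumours. Fcgr1, a high-affinity antibody receptor that interferon-gamma also induces, stood at 1.09 ± 0.34. Among lymphocytes, T cell genes had a median of 0.33 (0 of 7 called, of 18 listed) and NK and cytotoxic genes of 0.75 (0 of 5, of 14 listed). Klrk1, an activating NK receptor gene, exceeded the filter level of 5.67 in fewer than 8 of the 45 tumours and so was not tested. Without the filter it was called at 0.74 ± 0.17 (limma adjusted p = 0.0457). That call rests on low values and on 1 of 14 listed genes. Dendritic cell genes had a median of 0.28 (0 of 6, of 11 listed) and plasmacytoid dendritic cell genes of 0.45 (0 of 4, of 9 listed). Neutrophil genes had a median of -0.07 (0 of 9, of 13 listed). Mast cell genes stood at a median of 0.47 (0 of 6, of 9 listed) and B and plasma cell genes at 0.28 (0 of 3, of 10 listed).

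With the Ptprc level of each tumour as a covariate, limma called 45 genes, all higher, of which 43 were among the 74. The median difference of the 74 genes went from 1.19 to 1.00. The list medians went from 1.24 to 1.26 for the IFIT, OAS and MX families, from 1.04 to 0.99 for the GBP and IRG families and from 0.47 to 0.48 for MHC class I. Others moved more, from 0.52 to 0.10 for the STAT and IRF factors with Batf2, from 0.63 to 0.31 for sensors and from 1.07 to 0.85 for other interferon-stimulated genes. The calls went from 11 to 10 for antiviral effectors, from 7 to 4 for the GBP and IRG families, from 8 to 5 for the ISG15 system, from 20 to 11 for other interferon-stimulated genes, from 5 to 2 for sensors, from 3 to 1 for the STAT and IRF factors with Batf2 and from 2 to 1 for MHC class I. For negative regulators and for chemokines, where Cxcl10 had been called, they went from 1 to 0. The macrophage median went from 0.53 to -0.13, the chemokine median from 0.77 to 0.12 and the pan-leukocyte median, which includes Ptprc, to -0.04. The part of leukocyte content in the called differences was not tested beyond this covariate.

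**Figure D4:**
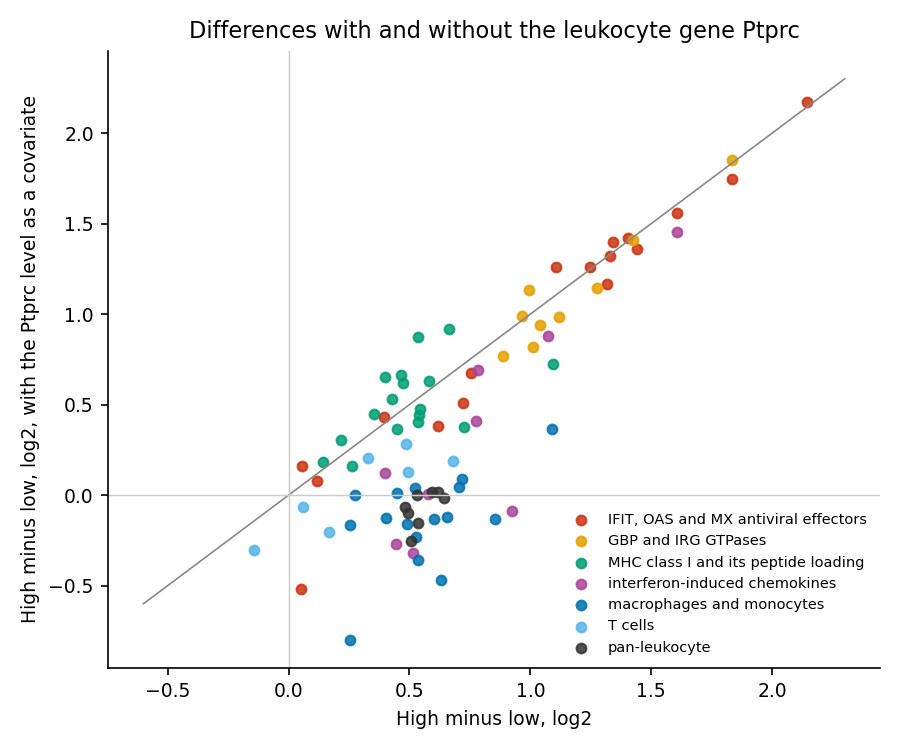
High minus low log2 difference of the tested genes of 7 lists without (horizontal) and with (vertical) the Ptprc level as a covariate, with the diagonal drawn. Antiviral effectors and GTPases stay near the diagonal, whereas macrophage and pan-leukocyte genes fall below it, with medians of -0.13 and -0.04 on the vertical axis.

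Markers of mammary epithelium varied widely among the tumours. Krt8, a luminal keratin gene, lay at 10.83 to 13.36 in the high set and 10.17 to 13.05 in the low set, with values down to 7.00 in the middle. Epcam, an adhesion molecule of epithelium, ranged from 6.04 to 11.97 and from 4.80 to 11.80, and the sets overlapped over most of their range. It was under 8 in 5 of the 24 tumours, namely sham replicates 5 and 13 and 30 cGy replicate 4 of the high set and sham replicate 10 and 80 cGy replicate 8 of the low set. Cdh1, which encodes E-cadherin, went down to 6.54 in the high and 6.35 in the low set. Without the 5 tumours of low Epcam limma called 60 genes, 57 of them among the 74. In all 24 tumours, of 16 luminal genes 0 were called (median -0.17), of 12 basal and myoepithelial genes 0 (median -0.16) and of 20 junction genes 0 (median -0.38). Without the 5 tumours of low Epcam these medians were 0.26, 0.003 and -0.04, so they depended on those tumours. All 7 squamous genes had a negative difference in the 24 tumours (median -0.74) with 0 calls, and the median was -0.86 without the 5. The squamous median was -0.19 within sham hosts and -1.44 within Si hosts. Krt5, a basal keratin, stood at -2.23 ± 1.14 (limma adjusted p = 0.838), with values of 5.33 to 13.01 in high and 4.93 to 13.21 in low tumours. The range of Krt5 values within each set was wider than the difference between the set means. All 21 cell cycle genes had a negative difference, with a median of -0.20 and 0 calls, and the proliferation gene Mki67 stood at -0.15 ± 0.18. The cell cycle median was -0.54 within sham hosts and -0.03 within Si hosts.

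Stromal lists had no call either. Fibroblast and matrix genes had a median of 0.53 with 14 of 14 above 0, endothelial genes 0.25, adipocyte genes 0.60 and skeletal muscle genes 1.07 with 9 of 9 above 0. Within sham hosts these medians were 0.74, 0.35, 2.23 and 1.84, in the same order. Within Si hosts they were 0.44, 0.15, -0.16 and 0.46. The mean level of the muscle genes ran from 5.03 to 12.40 in the high and from 4.96 to 8.89 in the low set, which overlapped. For Ckm, muscle creatine kinase, the highest values were 12.94 and 9.55 while the medians were 6.05 and 5.67. Medians were -0.12 for DNA damage response and repair, 0.11 for inflammatory cytokines and NF-kB targets, 0.33 for TGF-beta targets, -0.18 for hypoxia and glycolysis, 0.03 for oxidative phosphorylation, -0.02 for ribosomal proteins and -0.10 for lipid synthesis. The part of muscle, fat or fibroblast content in the called differences was not tested.

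On the lower side 0 genes passed. The smallest p there was that of Kdm3a, a histone demethylase gene, at 8.39 to 9.45 (median 8.86) in the high set and 8.72 to 10.21 (median 9.58) in the low set. The ranges overlapped and the difference was -0.62 ± 0.16 (limma adjusted p = 0.115). Bend4 at -0.72 ± 0.19 and Evc2 at -0.77 ± 0.21 came next, and neither passed.

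The 21 tumours between the sets were not used for the comparison, and the slope of each gene on the 5-gene mean was fitted in them. In these tumours limma called 0 of 12118 genes higher (0%). Of the 74 called genes 73 had a positive slope, against 5207 of all 12118, and 33 had an unadjusted p under 0.05, against 464. The 74 genes were called for following the same 5-gene mean, so their signs are not independent of one another. These counts are therefore a description and no separate support. The slope of Ifit2 was 1.32 log2 per unit of the 5-gene mean and that of Gm12250 was 1.42. The slope of Oas1b, the exception in sign, was -0.09. The middle tumours span a narrow range of the mean, from 8.36 to 9.22.

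Both sets held tumours of every host group. The high set held 5 sham, 2 at 10 cGy, 3 at 30 cGy and 2 at 80 cGy. The low set held 4, 3, 3 and 2. Sham against Si hosts gave an odds ratio of 1.41 (95% interval 0.204 to 10.4, two-sided Fisher's exact test p = 1), and the 4 groups together gave p = 1 by an exact test. The interval is wide and holds sizeable imbalances in either direction. The 5-gene mean was 8.79 ± 0.88 (SD, n = 18) in sham tumours, 8.64 ± 0.47 (SD, n = 9) at 10 cGy, 8.70 ± 0.95 (SD, n = 10) at 30 cGy and 8.86 ± 0.64 (SD, n = 8) at 80 cGy. The ranges of the groups overlapped, and the highest tumour came from a 30 cGy host and the lowest from a sham host.

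Si hosts were taken as the mean of the 10 cGy, 30 cGy and 80 cGy group means, with equal weights. This mean minus the sham mean stood at -0.12 ± 0.28 for Ifit1, 0.06 ± 0.28 for Ifit3, 0.12 ± 0.23 for Irf7, -0.26 ± 0.25 for Oas2 and -0.11 ± 0.27 for Rsad2, with limma adjusted p from 0.929 to 0.989. Of the 12123 genes tested, limma called 0 (0%) for 10 cGy, 30 cGy, 80 cGy and all Si hosts against sham, with 443, 540, 845 and 706 at an unadjusted p under 0.05. These contrasts share the sham tumours. Over the 74 called genes the median difference from sham was -0.03 at 10 cGy with 28 positive, -0.09 at 30 cGy with 15 positive and 0.07 at 80 cGy with 51 positive. Over all 12123 genes tested the medians were 0.01, -0.003 and 0.03, with 6285, 5964 and 6862 positive. The 74 genes were all called for following 1 ranking, so their signs are not independent. At 80 cGy 2 of the 74 had an unadjusted p under 0.05, and at the lower doses 0 did. For all Si hosts together the median over the 74 was -0.02 with 31 positive, beside 0.01 over all genes with 6449 of 12123 positive.

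**Figure D5:**
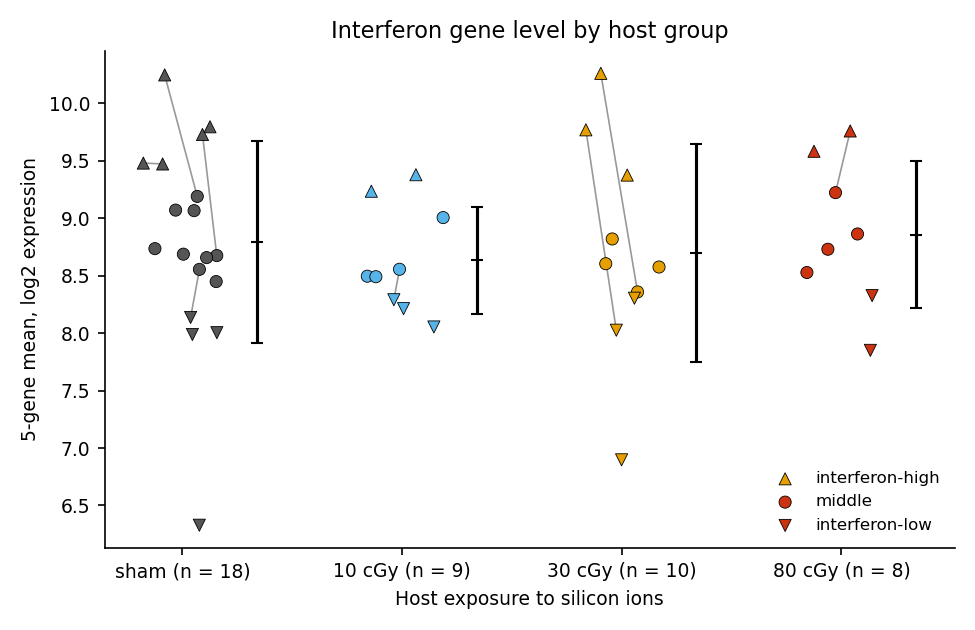
The 5-gene mean log2 expression of each tumour by host group, with triangles up for the high set, circles for the middle, triangles down for the low set, and mean ± SD beside each group. Grey lines join the 8 pairs of tumours whose sample codes share a stem, and every group holds both high and low tumours.

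The same contrast was fitted within hosts of each kind. In sham hosts, 5 high against 4 low tumours, limma called 26 genes, or 0.215% of 12118, with 25 higher and 1, Galnt10, lower, and 23 of them were among the 74. In Si hosts, 7 high against 8 low, limma called 12 genes, or 0.099%, all of them higher and among the 74. All 74 had a positive difference in both, with medians of 1.40 and 1.05, although the sets were chosen on all tumours together. A test of the difference between the 2 kinds of host called 0 genes (0%), with 456 at an unadjusted p under 0.05 and a lowest adjusted p of 0.102 in limma.

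Sample codes of 8 pairs of tumours share a stem and differ in the suffix L or R, the meaning of which is not given in the labels. Within these pairs the 5-gene mean differed by 0.008 to 1.90, with a median of 0.80, compared with 0.68 over all 990 pairs of tumours. Sham replicates 13 and 14 were both in the high set, at 9.47 and 9.48. In contrast, 30 cGy replicate 5 ranked 1 and its partner, replicate 6, ranked 33. The pair 30 cGy replicates 7 and 8 held 1 low tumour, at 8.03, and 1 high tumour, at 9.77. The median difference within these pairs was thus not below that over all pairs.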

How the data were processed

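Total RNA of 45 tumours was measured on single-colour Affymetrix arrays. Per the submitters' processing notes, the deposited log2 values came from RMA with the oligo package, with versions not stated in the sources used here. RMA quantile-normalizes arrays, so a change shared by most genes is removed. Array medians lay between 5.48 and 5.80. The number of arrays limits the precision. Groups were read from the sample titles. Symbols came from the platform annotation: of 35556 probe sets 21218 had 1 symbol, 1881 several and 12457 none, and 21185 of the first were found in RefSeq. The 18820 genes were each represented by the probe set of highest mean (1386 had several), and 12123 with a value above 5.67 in at least 8 tumours were kept. High and low sets were fitted with limma 3.58.1 in R 4.3.3 (lmFit and eBayes, two-sided, Benjamini-Hochberg over all genes kept, threshold 0.05). The 5 ranking genes were then left out of the counts, leaving 12118. The scripts were tested on simulated data. Genes named are those of smallest p on each side, the largest differences and members of the lists. Others, such as those singled out for the middle tumours or hosts, were chosen after their values were seen. The members and lists were chosen with earlier results of these data known. Replicate numbers did not pair samples across groups: over 52 same-numbered pairs the correlation of deviations ran from -0.52 to 0.34, with a median of -0.07. Alternatives covered the filter, score, set size, covariates, blocks, weights and single tumours. Those added after seeing the data were the fits without tumours of low Epcam or the 2 lowest-ranked tumours, without the ranking genes in the adjustment, and over the middle tumours.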

Additional observations from a re-analysis of the deposited data

Results flagged for a closer look

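In 10 cGy tumours, replicate 2 lay far above the others for Irf7, at 10.94 with the nearest other tumour at 10.04, and for Oas3, at 9.44 with the nearest at 7.98. It belongs to the high set. In 30 cGy tumours, replicate 1, a middle tumour, lay far above the others for BC023105, at 9.87 with the nearest at 6.95. These are 3 of 57 groups of values examined for a single tumour standing far from the rest, and chance alone flags about 1 in 20. The causes were not tested.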

How the results depend on the processing

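The count of 74 called genes stayed between 54 and 82 under most alternatives, with 70 without the filter, 66 with host group as a covariate, 75 with code stem as a random block, 67 for the top and bottom 9, 80 for the top and bottom 15 and 66 to 82 when each ranking gene was left out in turn. Leaving out 1 tumour at a time gave 60 to 78 calls over 24 fits, and 57 genes were called in all of them. It moved by more than 1.5 times in 3 settings: 128 genes for a slope on the 5-gene mean over all 45 tumours (119 higher, 9 lower), 45 with the Ptprc level as a covariate and 0 for the slope over the 21 middle tumours, which uses fewer and more similar tumours. Genes on the lower side were called in that 45-tumour slope, with array weights (2), for the top and bottom 15 (1) and without 10 cGy replicate 5 (3). Without the 5 tumours with Epcam under 8, 60 genes were called, 57 of them among the 74. Of 13 genes named for the smallest p or largest difference, all 13 lost the call in the middle tumours and 0 changed sign. Sham against Si hosts had p of 0.667 or more in each alternative makeup of the sets. With replicate number as a block, Si minus sham called 6 genes instead of 0, none of them a ranking gene. The numbers are not shown to pair samples.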
